A study of Homo sapiens with 4 samples.

Results

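The genes of NODAL, activin, TGF-beta and BMP signalling were compared in Nanopore cDNA libraries of human embryonic stem cells (hESCs) in the naive and the primed state. The set was a list of 44 gene symbols, picked by their known role in the pathway with earlier results of these data known, out of 62218 genes with a matched transcript. It holds 11 ligands, 11 receptors, 9 SMAD proteins and SMAD partners, 9 inhibitors and 4 target genes, with 285 of the 242542 matched transcripts. All 44 symbols were found, and each gene was represented by the transcript with its largest mean count over the libraries.

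All cells were of the H1 line, a human embryonic stem cell line of WT genotype, with no transgene or deletion named for either state. Primed cells were kept in mTeSR and taken at 60 to 70% confluency. Naive cells, converted from H1 primed cells, were kept in the FINE condition and taken at 50% confluency. According to the study's methods that medium held Activin A, LIF and bFGF together with the inhibitors dasatinib, AZD5438, SB590885, PD0325901 and Y-27632. Naive cells grew in low oxygen on Matrigel of reduced growth factor content, and primed cells in normal oxygen on Matrigel. Medium, inhibitors, oxygen, matrix and state therefore cannot be told apart. Each state had 2 libraries of a single cell line. Nothing says that the replicates were separate cultures, so p-values measure only the spread between these libraries, which may be technical.

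The pathway works by secreted ligands of the TGF-beta superfamily that bring together type I and type II receptor kinases, which phosphorylate SMAD proteins. NODAL, GDF3, the activins and TGF-beta signal through SMAD2 and SMAD3, and BMPs through SMAD1, SMAD5 and SMAD9, and each group enters the nucleus with SMAD4. In human pluripotent cells activin and NODAL signalling is known to sustain self-renewal, whereas BMP signalling is known to drive primed cells out of pluripotency, and LEFTY proteins, CER1, FST, NOG and inhibitory SMADs limit the signal.

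The 4 libraries held between 129276054 and 161548901 alignment counts over all transcripts. Levels are given as counts-per-million values (CPM) of the normalized gene total, on which 3 counts, the limit that a count of 0 allows, come to between 0.0978 and 0.130 CPM. Reads carried no molecular identifiers, and the intervals and limits printed here take in counting error alone. Since the RNA came from whole cultures, fewer cells of a type and less RNA per cell cannot be told apart. All 8 naive marker genes were called lower and all 8 primed marker genes higher in the primed libraries, although KLF17, a naive marker, turned direction with scaling by library size. The 9 trophoblast markers summed to between 2124 and 2472 CPM in the naive libraries and to between 7.17 and 7.67 CPM in the primed libraries, and 8 of the 9 were called lower in the primed libraries. CGA, the alpha subunit of the gonadotropins, accounted for most of that, with counts of 35747 and 47550 in the naive libraries and of 0 and 1 in the primed libraries. All 5 amnion markers were called lower in the primed libraries, from sums between 24.1 and 24.8 CPM to sums between 4.79 and 6.31 CPM. In the other direction, 3 of 4 tested fibroblast markers were called higher, with sums between 2.62 and 3.64 CPM in the naive libraries and between 58.0 and 60.0 CPM in the primed libraries, although DCN and LUM, which define fibroblasts, had at most 5 counts in any library. Of 4 neuroectoderm markers 2 were tested, and both were called higher too. The sums of the 4 went from between 1.91 and 2.31 CPM to between 12.8 and 13.4 CPM. Of 8 mesendoderm and endoderm markers 4 were tested and 1 was called, lower in the primed libraries. Their sums went from between 4.42 and 4.97 CPM to between 2.61 and 2.97 CPM. Of 5 shared pluripotency markers 3 were called higher and 1 lower. These marker sums differed between the states, as did every member called below, and their part in those results was not tested.

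Of the 44 members, 41 had at least 10 counts in at least 2 libraries and were tested, and 33 of them differed between the states, 21 higher and 12 lower in primed cells (edgeR's quasi-likelihood test, adjusted p under 0.05 over all genes). Of all 27634 genes tested, 70.0% were called, 37.4% higher and 32.6% lower, so that a called member is not unusual in this comparison. Beyond a log2 fold change of 1 there were 20 members, 13 higher and 7 lower, beside 47.1% of all genes, 28.6% higher and 18.5% lower. Among the 13, INHBA, INHBE, CER1, SMAD9, BMP2, BMPR1B and TGFB2 reached the filter only through their primed libraries. With their naive counts in both states they would not have been tested, except TGFB2, which had naive counts of 10 and 9. No member called lower reached the filter through the naive libraries alone. The median log2 fold change, primed minus naive, was 0.37 over the members tested and 0.08 over all genes tested, and that of the members is the same with INHBA and CER1, which had no naive count, at their lower bounds. In 36 of the 41 tested members the 2 primed libraries lay entirely above or entirely below the naive libraries, beside 84.4% of all genes.

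Directions near 0 depend on the scaling. Scaling by library size in place of TMM factors raised the median of all genes by 0.64 to 0.72, and that of the members to 1.00, and the members then split into 27 higher and 6 lower, with TGFB1, SMAD3, FOXH1, LEFTY1, BAMBI and SKI newly called higher. The 6 that stayed lower were NODAL, GDF3, TGFBR3, SMAD7, LEFTY2 and FST. Over all genes the split went from 10329 higher and 9009 lower to 15526 higher and 4512 lower. Of the 41 members, 5 changed sign with library size or with DESeq2's size factors, beside 21.2% of all genes. For 13 members, 9 of them called, a gene that overlaps them held at least 50% of their count, and the called ones were NODAL, INHBA, INHBE, TGFB3, BMP4, ACVR2A, SMAD1, SMAD4 and LEFTY2. Without the 13 there were 24 called members, 16 higher and 8 lower.

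**Figure D1:**
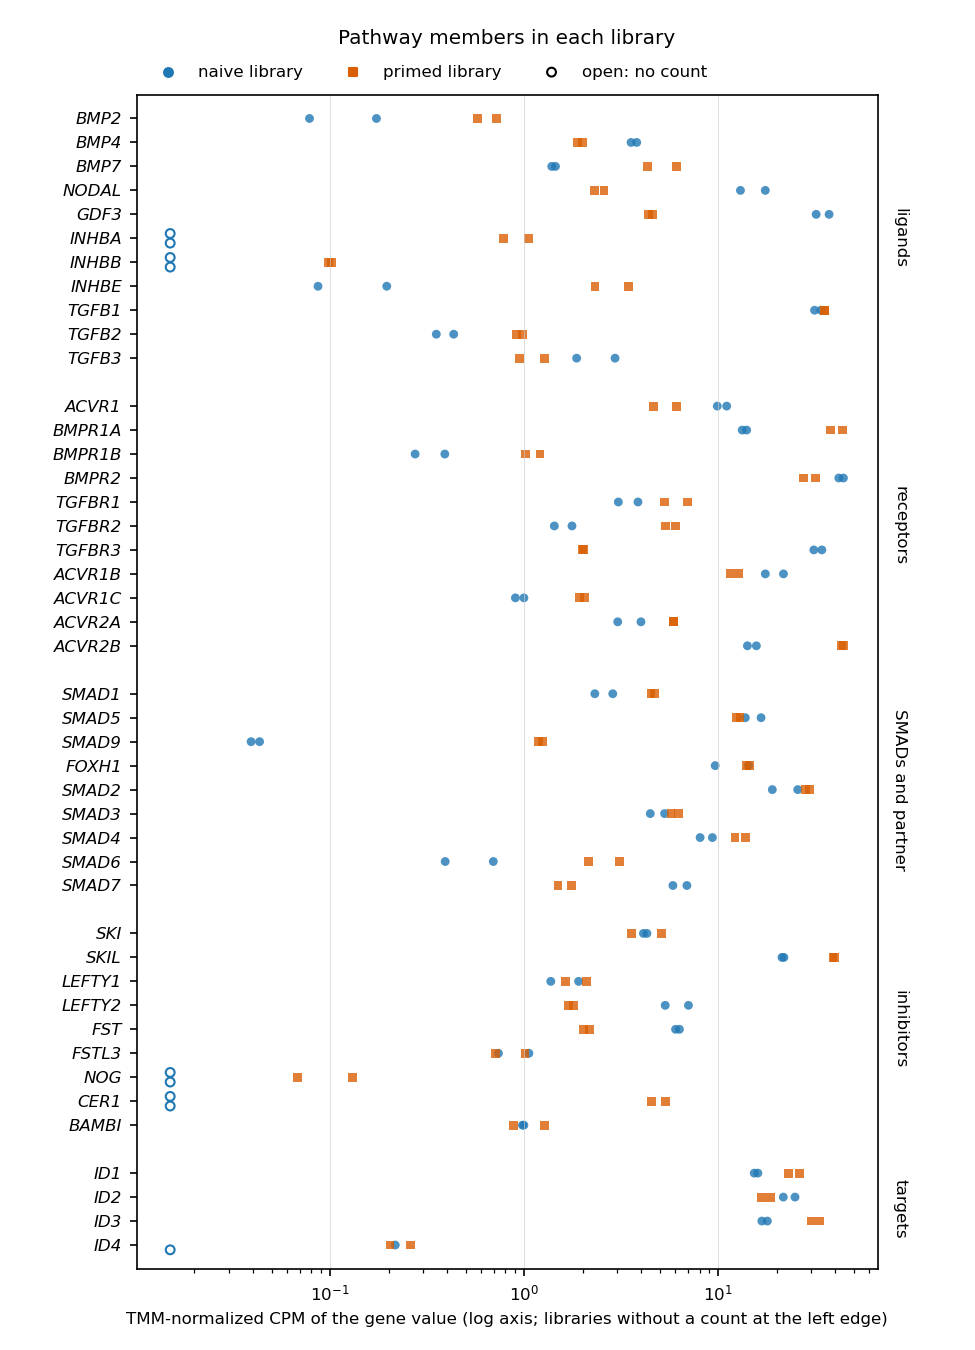
CPM on a log axis for each of the 44 members, ordered by class, with naive libraries as circles, primed libraries as squares and libraries without a count as open symbols at the left edge. The naive circles of GDF3, NODAL and TGFBR3 lie far to the right of their primed squares, and CER1, INHBA, INHBB and NOG have no naive count.

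The sequence before the start site is shown for 3 members of the NODAL branch with large changes, NODAL, GDF3 and CER1, and for ID3, the target with the highest primed level per length. Each line gives the 250 bases before the RefSeq transcription start, 5′ to 3′ on the strand of the gene, in build GRCh38.p14. Capitals mark TGTNNATT or its reverse complement AATNNACA, the core letters bound by FOXH1, and CAGAC or GTCTG, the SMAD box.
NODAL, chr10:70441682-70441931, minus strand: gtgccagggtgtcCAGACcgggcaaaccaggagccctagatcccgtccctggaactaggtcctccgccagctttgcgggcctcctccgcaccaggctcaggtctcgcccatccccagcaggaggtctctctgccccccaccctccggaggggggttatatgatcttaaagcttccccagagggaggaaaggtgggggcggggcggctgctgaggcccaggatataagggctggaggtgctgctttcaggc
GDF3, chr12:7695776-7696025, minus strand: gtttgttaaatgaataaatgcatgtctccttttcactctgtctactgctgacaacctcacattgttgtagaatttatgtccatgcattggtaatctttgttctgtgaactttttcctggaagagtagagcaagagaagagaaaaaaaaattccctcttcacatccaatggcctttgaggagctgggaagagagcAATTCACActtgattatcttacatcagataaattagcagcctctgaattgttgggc
CER1, chr9:14722734-14722983, minus strand: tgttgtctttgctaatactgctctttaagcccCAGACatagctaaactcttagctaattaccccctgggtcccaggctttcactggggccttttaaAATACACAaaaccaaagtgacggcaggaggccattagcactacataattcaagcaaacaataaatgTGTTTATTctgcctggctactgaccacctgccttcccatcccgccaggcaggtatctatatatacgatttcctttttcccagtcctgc
ID3, chr1:23559502-23559751, minus strand: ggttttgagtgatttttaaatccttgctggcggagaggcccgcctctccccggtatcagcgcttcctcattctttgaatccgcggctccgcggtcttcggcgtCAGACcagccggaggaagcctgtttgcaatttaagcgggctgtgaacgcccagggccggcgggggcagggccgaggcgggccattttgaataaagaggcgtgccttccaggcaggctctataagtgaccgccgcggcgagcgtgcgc
The CER1 window held 2 FOXH1 cores and 1 SMAD box and the GDF3 window 1 FOXH1 core. The NODAL and ID3 windows held 1 SMAD box each, and no match overlapped another. Among windows not printed, 1 of SMAD1 held 2 FOXH1 cores, and 1 each of BMPR1B and SMAD3 held 1. RefSeq windows were matched for 36 of the 44 members, with 64 windows in all, and none is printed for BMP7, INHBE, BMP2, FOXH1, LEFTY1, LEFTY2, SKI and NOG. Of the 64 member windows, 5 (7.81%) held a FOXH1 core, 23 (35.9%) a SMAD box, and 15 (23.4%) GGCGCC, a GC-rich SMAD element that is its own reverse complement. Among all 35116 windows of this length, 9.88% held a FOXH1 core, 38.0% a SMAD box and 16.4% GGCGCC on either strand, and windows of 1 gene can overlap. These are matches of letters only.

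The ligands of the NODAL and activin branch split in direction, with NODAL and GDF3 lower and INHBA and INHBE higher in primed cells. NODAL (ENSG00000156574, chr10:70431936-70441681, minus strand), the ligand that patterns the early embryo, had counts of 403 and 332 in the naive libraries and of 68 and 79 in the primed libraries. Both primed libraries lay far below both naive libraries, from 15.2 ± 3.15 CPM to 2.44 ± 0.188 CPM (SD, n = 2 each), 6.24-fold lower. The log2 fold change was -2.64 ± 0.20 (SE, adjusted p = 1.96e-15, edgeR's quasi-likelihood test). A transcript model of unclassified type, ENSG00000280401, lies inside the NODAL gene on the other strand and held 337, 269, 54 and 62 counts, and strand was not used in the counting. The alignments of NODAL that missed it numbered 66 and 63 in the naive libraries and 14 and 17 in the primed libraries, again 5.18-fold lower.

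GDF3 (chr12:7689784-7695775, minus strand), a NODAL-related ligand expressed in pluripotent cells, showed the largest fall among the ligands. Its counts were 859 and 815 in the naive libraries and 135 and 134 in the primed libraries. The primed libraries were almost equal and both lay below the naive ones, 7.73-fold lower, with a log2 fold change of -2.95 ± 0.17 (SE, adjusted p = 2.47e-19).

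INHBA (chr7:41667168-41705335, minus strand), the subunit of activin A, had no count in either naive library and 31 and 24 counts in the primed libraries. Against the limit of 3 counts per library it was at least 7.41-fold higher in primed cells (adjusted p = 1.81e-08). The naive medium itself contained activin A protein, which these libraries do not measure. INHBE, the subunit of activin E, had 2 and 5 counts against 102 and 71 for INHBE-203, its transcript with the largest count, with a ratio of 20.0 (95% counting interval 9.49 to 50.4). Its canonical transcript INHBE-201 (chr12:57455307-57458025, plus strand) had 0 and 0 counts in the naive libraries and 99 and 61 in the primed libraries, at least 21.6-fold higher. An antisense lncRNA, ENSG00000287200, overlaps its 3′ part and held 3, 8, 96 and 70 counts, so that reads of the pair cannot be told apart. INHBB, the subunit of activin B, had no naive count and 3 counts in each primed library, at the limit in both states, and was not tested.

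Of the TGF-beta ligands, TGFB2 was 2.41-fold higher and TGFB3 2.16-fold lower in primed cells. TGFB2 (chr1:218345336-218444619) had 10 and 9 counts in the naive libraries and 27 and 30 in the primed libraries, without overlap. Its log2 fold change was 1.27 ± 0.42 (SE, adjusted p = 0.00700), and the call was lost without naive replicate 2 (adjusted p = 0.0519) and with DESeq2 (adjusted p = 0.109). TGFB3 (chr14:75958097-75981995), with 43 and 75 naive counts and 28 and 39 primed counts, fell by 1.11 ± 0.30 on the log2 scale (adjusted p = 0.00118). The states did not overlap, but the 2 naive libraries lay far apart, and without naive replicate 2 the log2 fold change was -0.74 (adjusted p = 0.0661), and with library size it was -0.48 (adjusted p = 0.170). The whole of TGFB3 lies within IFT43, a gene on the other strand with 372, 400, 441 and 459 counts, so that the reads of TGFB3 are uncertain. The transcript of TGFB1 with the largest count, TGFB1-203, spans the end of HNRNPUL1, a gene on the other strand that held 843, 976, 1148 and 1168 counts, and its 723, 863, 1042 and 1080 counts are therefore uncertain. The canonical TGFB1-201 (chr19:41330323-41353922) had 39 and 53 naive counts and 57 and 78 primed counts, and its log2 fold change of 0.24 did not pass the test (adjusted p = 0.442).

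The BMP ligands divided too, with BMP2 and BMP7 higher and BMP4 lower in primed cells. BMP7 (chr20:57168753-57266641) had counts of 32 and 37 in the naive libraries and of 127 and 187 in the primed libraries. Every primed value was above every naive value, 3.67-fold on average, with a log2 fold change of 1.87 ± 0.26 (SE, adjusted p = 2.51e-08). BMP2 (chr20:6767686-6780246) was close to the limit of detection in naive cells, with 4 and 2 counts against 17 and 22, a ratio of 5.25 (95% counting interval 2.21 to 15.2, adjusted p = 0.00032). BMP4, the ligand used to drive hESCs towards trophoblast and mesoderm, had a log2 fold change of -0.92 ± 0.25 (SE, adjusted p = 0.00121), which was -0.28 and no longer called with scaling by library size.

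All 11 receptors were called, 7 higher and 4 lower in primed cells, where 70.0% of all genes were called. Type II receptors bind the ligand and activate the type I receptors. Of the activin and NODAL receptors, ACVR2B (chr3:38453890-38493142), a type II receptor, changed most, with 326 and 401 counts in the naive libraries and 1271 and 1360 in the primed libraries. The primed level was 43.7 ± 0.833 CPM against 14.9 ± 1.12 CPM (SD, n = 2 each), a log2 fold change of 1.55 ± 0.15 (SE, adjusted p = 5.41e-12). ACVR1C, the type I receptor ALK7, had 23 and 23 naive counts and 57 and 63 primed counts, with a log2 fold change of 1.07 ± 0.31 (adjusted p = 0.00231). The type I receptor ALK4, encoded by ACVR1B, went the other way by -0.68 ± 0.16, and this fell to -0.04 with scaling by library size (adjusted p = 0.833). ACVR2A rose by 0.74 ± 0.21 on the log2 scale, and the call was lost without naive replicate 1 (0.55, adjusted p = 0.0523). On the other strand ORC4 overlaps its 3′ end, with 487, 595, 666 and 683 counts, and the lncRNA ENSG00000223911 lies inside it, with 32, 52, 101 and 82 counts.

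Among the BMP receptors, the type I receptors BMPR1A and BMPR1B were higher in primed cells. The type I receptor ACVR1 and the type II receptor BMPR2 were lower. BMPR1A (chr10:86756601-86932825), also known as ALK3, had 323 and 339 counts in the naive libraries and 1118 and 1337 in the primed libraries. These do not overlap and differ 2.99-fold, with a log2 fold change of 1.58 ± 0.16 (SE, adjusted p = 4.72e-12). BMPR1B, also known as ALK6, was scarce, with 9 and 7 naive counts and 30 and 37 primed counts, a log2 fold change of 1.74 ± 0.42 (adjusted p = 0.000365). ACVR1, the type I receptor ALK2, had a log2 fold change of -0.97 ± 0.19 with TMM, and of -0.33 (adjusted p = 0.130) with library size. BMPR2, the type II receptor of BMPs, had a log2 fold change of -0.54 ± 0.15 with TMM, which turned to 0.10 with library size.

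The TGF-beta receptors showed the widest split. TGFBR3 (betaglycan), a co-receptor that presents TGF-beta2 and binds inhibins, fell most of all 44 members. The TGFBR3-202 transcript (chr1:91682426-91906335, minus strand) held 717 and 872 counts in the naive libraries and 59 and 62 in the primed libraries. Primed libraries agreed closely at 2.01 ± 0.0126 CPM against 32.6 ± 2.19 CPM (SD, n = 2 each), 16.2-fold lower, and the log2 fold change was -4.02 ± 0.19 (SE, adjusted p = 1.01e-22). The signalling receptor TGFBR2 (chr3:30606601-30694142) moved the opposite way, from 33 and 45 counts to 157 and 184 counts. That is a log2 fold change of 1.82 ± 0.24 (SE, adjusted p = 1.33e-08), with both primed libraries above both naive libraries. TGFBR1, the type I receptor ALK5, rose by 0.83 ± 0.22 on the log2 scale (adjusted p = 0.000869).

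**Figure D2:**
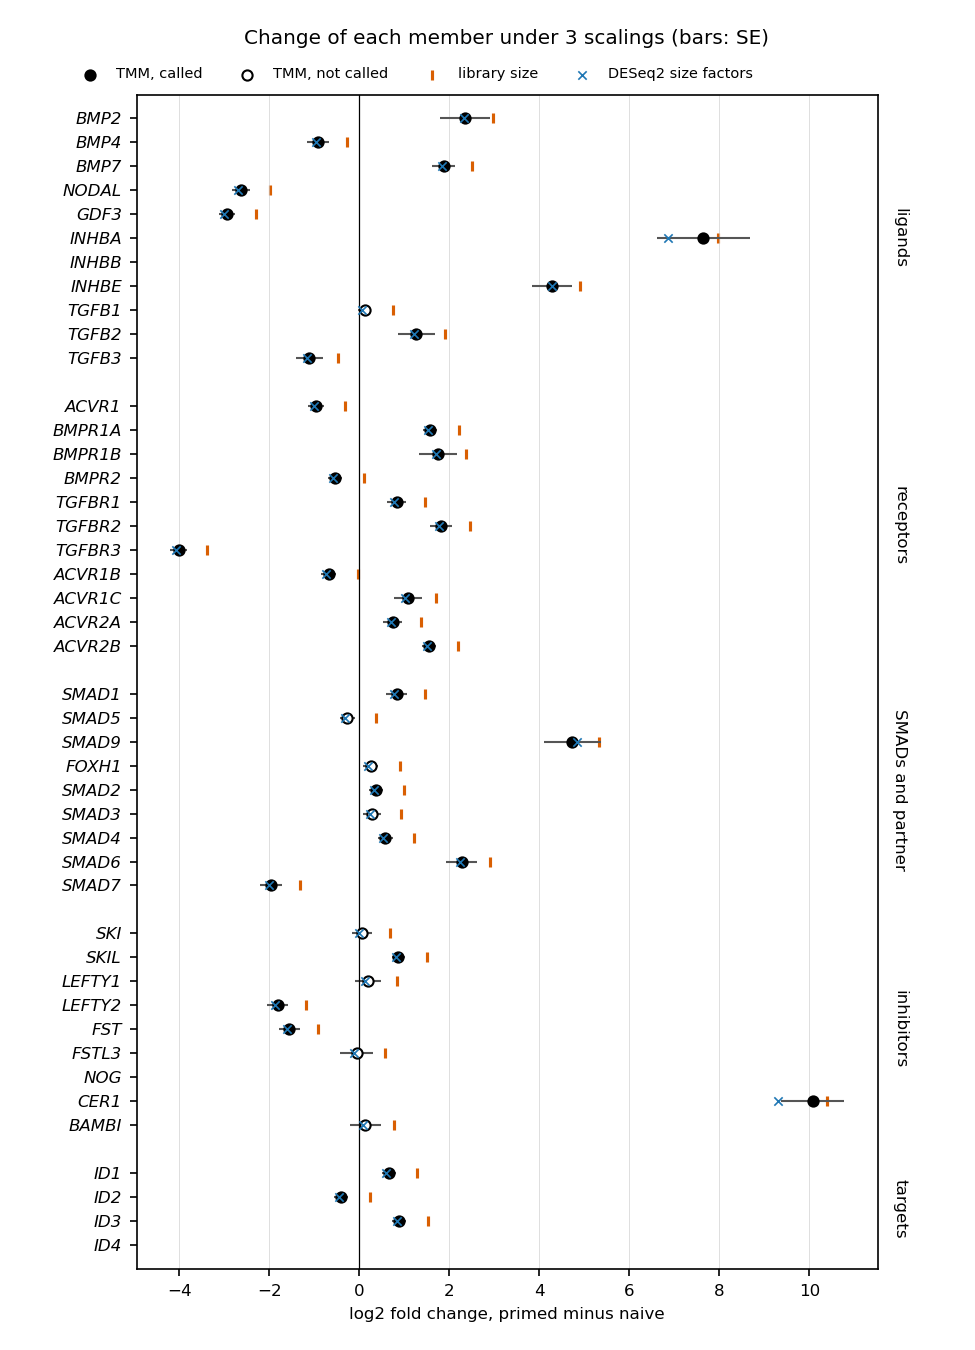
Log2 fold change, primed minus naive, of each tested member with its SE as a bar, by class; filled circles were called with TMM, open circles were not, orange ticks show library size scaling and blue crosses DESeq2. Library size moves the points to the right by about 0.64, which carries BMPR2, SMAD5, FSTL3 and ID2 across 0, while TGFBR3, GDF3 and NODAL remain below it; the points of INHBA and CER1 rest on naive counts of 0.

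SMAD proteins carry the signal to the nucleus. Of the 9 genes for SMADs and their partner FOXH1, 5 were called higher and 1 lower, where 70.0% of all genes were called. The largest change was in SMAD9 (chr13:36844831-36920238, minus strand), a BMP SMAD, which had 1 count in each naive library and 35 and 38 counts in the primed libraries. The ratio was 29.5 (95% counting interval 7.88 to 248, adjusted p = 1.13e-08). SMAD1 rose by 0.83 ± 0.23 on the log2 scale (adjusted p = 0.00166), while SMAD5 was at -0.26 ± 0.16, did not pass the test (adjusted p = 0.143) and turned to 0.37 with library size, whereas with summed isoforms it was called at -0.40 (adjusted p = 0.0358). The common SMAD4 rose by 0.58 ± 0.17 (adjusted p = 0.00277), a call lost when isoforms were summed (0.32, adjusted p = 0.112). SMAD3, with a log2 fold change of 0.29 ± 0.20, did not pass the test (adjusted p = 0.199). SMAD2 was called at 0.37 ± 0.16 (adjusted p = 0.0344). The call was lost in each fit without naive replicate 1 (0.17), primed replicate 1 (0.40) or primed replicate 2 (0.33). It was also lost with DESeq2 (0.32), without a count filter (0.36) and with summed isoforms (0.12).

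The 2 inhibitory SMADs, which block receptor signalling and are themselves induced by it, went in opposite directions. SMAD6, which acts mainly on the BMP branch, had 16 and 10 counts in the naive libraries and 63 and 95 in the primed libraries (chr15:66702236-66782849). Both primed libraries were above both naive libraries, with a log2 fold change of 2.28 ± 0.35 (SE, adjusted p = 1.94e-07). SMAD7, which acts on both branches, had 159 and 149 naive counts and 44 and 54 primed counts (chr18:48919853-48950965), a change of -1.96 ± 0.24 (adjusted p = 1.02e-09). FOXH1, the DNA-binding partner of SMAD2 and SMAD3 in NODAL signalling, had 330 and 246 naive counts and 409 and 446 primed counts, which overlap after normalization, and a log2 fold change of 0.25 ± 0.17 (adjusted p = 0.192). Without naive replicate 1 it was called at 0.56 (adjusted p = 0.0186). Its 3′ end overlaps that of KIFC2 on the other strand, and the span of FOXH1-202, which lies outside KIFC2, held 242 and 162 naive counts and 322 and 293 primed counts.

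Of the inhibitors, 4 of 8 tested members were called, CER1 and SKIL higher and LEFTY2 and FST lower in primed cells, where 70.0% of all genes were called. CER1 (chr9:14719724-14722733, minus strand), a secreted antagonist of NODAL and BMP that is itself a NODAL target, had no count in either naive library and 158 and 139 counts in the primed libraries. It was at least 40.0-fold higher in primed cells against the limit of 3 counts per library (adjusted p = 1.12e-16, edgeR's quasi-likelihood test). FST (chr5:53480629-53487134), which traps activin, had 139 and 161 naive counts and 64 and 62 primed counts. The states did not overlap, and FST changed by -1.55 ± 0.23 on the log2 scale (SE, adjusted p = 7.70e-08).

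LEFTY1 and LEFTY2 are neighbouring genes for NODAL inhibitors that NODAL signalling induces. LEFTY2 (chr1:225936603-225941220, minus strand) had 162 and 136 counts in the naive libraries and 53 and 52 in the primed libraries. Its 2 primed libraries lay below both naive libraries, 3.53-fold lower, with a log2 fold change of -1.82 ± 0.24 (SE, adjusted p = 7.13e-09). LEFTY1 (chr1:225886282-225889146, minus strand) had 44 and 35 naive counts and 48 and 64 primed counts, which overlap after normalization, and a log2 fold change of 0.19 ± 0.29 that did not pass the test (adjusted p = 0.573). Without naive replicate 2 the value was -0.04, without primed replicate 2 it was -0.0018, and with library size it was 0.83 (adjusted p = 0.0138). Whether the 2 genes differ in their change was not tested.

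The LEFTY coding sequences are nearly the same, with 1067 of 1098 aligned bases identical (97.2%), and a read that aligned to both genes was counted at each. The 3′ end of LEFTY2 also overlaps a lncRNA on the same strand, ENSG00000248322, with 160, 132, 50 and 45 counts. The span of LEFTY2-203, which lies outside it, held 74 and 56 naive counts and 32 and 21 primed counts, 3.05-fold lower. How reads were shared between the LEFTY genes was not tested.

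SKIL, a corepressor that binds SMADs and is induced by TGF-beta, rose by 0.87 ± 0.15 on the log2 scale (adjusted p = 2.16e-06). Its relative SKI stood at 0.05 ± 0.22 and did not pass the test. The decoy receptor BAMBI (0.13 ± 0.34) and the follistatin-related FSTL3 (-0.06 ± 0.37) did not pass it either, and FSTL3 turned to 0.57 with library size. NOG, the BMP antagonist noggin, had no naive count and 2 and 4 primed counts, about the limit in both states, and was not tested.

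The ID genes, which encode inhibitors of DNA-binding proteins and are textbook targets of BMP signalling through SMAD1 and SMAD5, differed widely in level, with ID1, ID2 and ID3 among the highest members in both states and ID4 among the lowest. ID3 rose by 0.88 ± 0.15 (adjusted p = 2.84e-06) and ID1 by 0.65 ± 0.16 (adjusted p = 0.000311) on the log2 scale. ID2 was at -0.40 ± 0.16 (adjusted p = 0.0207) with TMM and at 0.23 with library size, and its call was lost without naive replicate 2 (adjusted p = 0.176) and without primed replicate 1 (adjusted p = 0.138). ID4 had 5 and 0 naive counts and 6 and 8 primed counts, overlapping ranges, and was not tested.

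**Figure D3:**
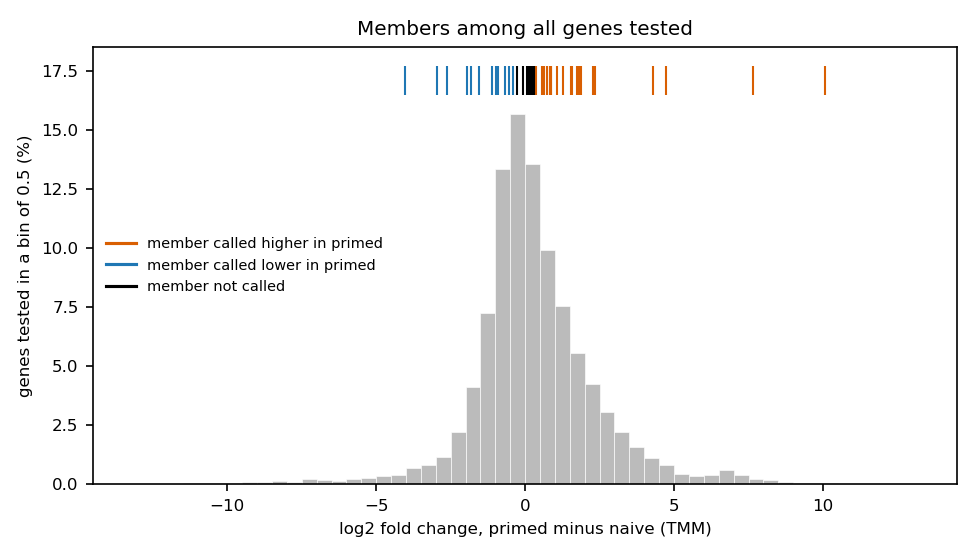
Share of the 27634 genes tested in bins of 0.5 of log2 fold change, primed minus naive (grey bars), with a tick above for each of the 41 members tested, orange where called higher, blue where called lower and black where not called. All genes reach from the bin at -14 to the bin ending at 14, and the members from -4.02 for TGFBR3 to a fitted 10.07 for CER1, which rests on a naive count of 0 and is no measured fold.

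Levels of different genes were compared per length, as CPM per kb of the exonic length of the canonical transcript. The counts also take in intronic alignments and those of overlapping genes, so that these levels are approximate. On the other strand, KIFC2 had a count equal to 97.9% of that of FOXH1 over all libraries. The unclassified model inside NODAL had 81.9% of the count of NODAL. The ranks of FOXH1 and NODAL are uncertain for that reason. In naive cells GDF3 was highest, at 28.0 ± 3.03 CPM per kb (SD, n = 2), followed by ID3 at 18.2 ± 0.840, ID2 at 17.8 ± 1.75 and ID1 at 15.9 ± 0.483 CPM per kb. ID3 and ID2 were within 1 SD of each other. NODAL had rank 5, at 7.40 ± 1.53 CPM per kb, close to FOXH1 at 5.93 ± 1.63 CPM per kb and within their spread. In primed cells ID3 led at 33.5 ± 2.38 CPM per kb, above ID1 at 25.0 ± 2.35 and ID2 at 13.4 ± 1.17 CPM per kb. FOXH1 and BMPR1A came next at 7.04 ± 0.228 and 6.06 ± 0.543 CPM per kb, and CER1 stood at 4.02 ± 0.479 CPM per kb. GDF3 fell to rank 9 and NODAL to rank 18 of the 44 members, at 3.62 ± 0.123 and 1.19 ± 0.0915 CPM per kb. TGFBR3 went from rank 8 to rank 35, while BMPR1A went from rank 15 to rank 5 and ACVR2B from rank 18 to rank 8.

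**Figure D4:**
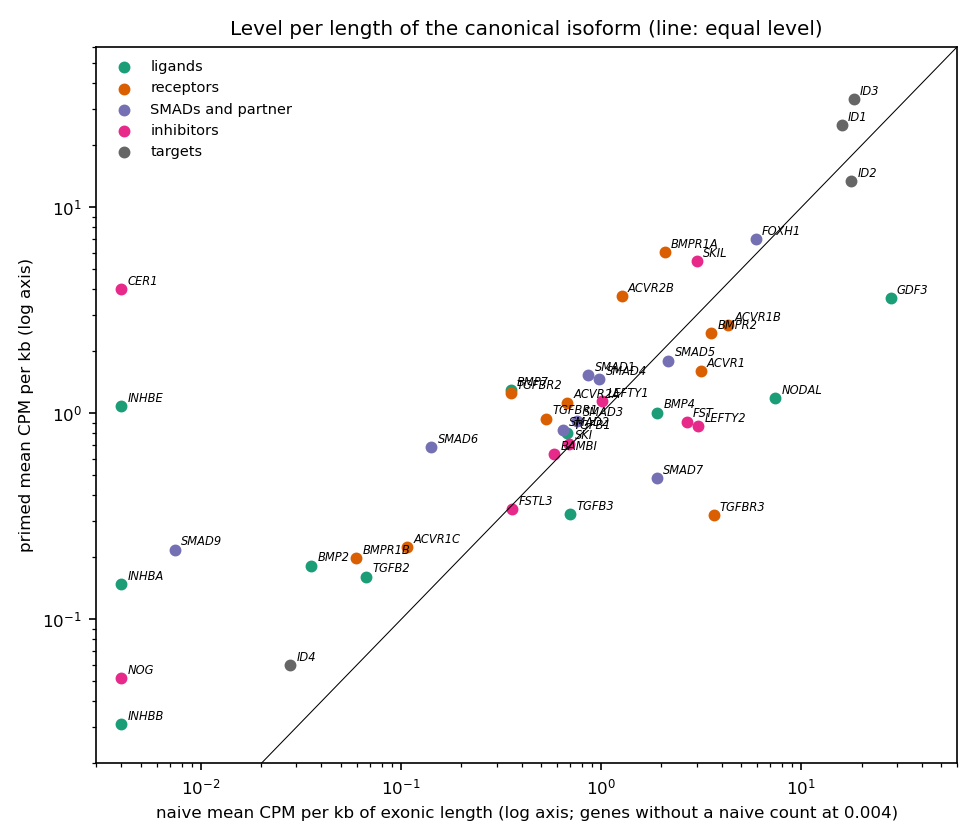
Mean CPM per kb of exonic length of each member's canonical transcript in naive cells (horizontal, log axis) and primed cells (vertical, log axis), coloured by class, with the line of equal level; the 5 members CER1, INHBE, INHBA, INHBB and NOG, without a naive count, are drawn at the left edge. GDF3, NODAL and TGFBR3 lie well below the line and SMAD9 well above it.

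Use of isoforms was tested for 268 member isoforms in 38 genes, each against the other isoforms of its gene. None was called at an adjusted p under 0.05 with a change in isoform fraction beyond 0.1 (edgeR's diffSpliceDGE), where 0.556% of the 159577 isoforms of all genes were called. At an unadjusted p under 0.05 there were 24 member isoforms, or 8.96%, beside 9.72% of all isoforms. Without the limit on the fraction 3 isoforms passed, TGFBR3-211, SMAD4-221 and SKIL-208, beside 4.27% of all isoforms. TGFBR3-211, a short transcript in the 5′ part of the gene, went from 4.04% to 12.3% of the isoform fraction of TGFBR3 (adjusted p = 0.00345). Since 52 of the tested isoforms had the counts of another isoform of their gene, whole-span counts separate isoforms poorly.

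Parts of transcript spans, chosen after the values were seen and given without a test, showed where the alignments of 2 receptors lay. TGFBR3-209 spans chr1:91682647-91885932, and TGFBR3-202 reaches 20403 bases farther upstream and 221 bases farther downstream. Alignments of TGFBR3-202 that missed the TGFBR3-209 span numbered 244 and 243 in the naive libraries and 0 and 0 in the primed libraries, at least 101-fold lower. The canonical TGFBR3-201, which covers the downstream stretch and starts near the TGFBR3-209 start, held 484 and 644 naive counts beside 473 and 629 for TGFBR3-209. Within the TGFBR3-209 span the primed libraries were 11.2-fold lower, with 59 and 62 counts.

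BMPR1A differed along its length as well. The span of BMPR1A-203 (chr10:86838862-86929746) held 84 and 127 counts in the naive libraries and 673 and 751 in the primed libraries, 5.49-fold higher. The alignments of BMPR1A-205 that missed it, in 82261 bases upstream and 3079 bases downstream, numbered 239 and 212 in the naive libraries and 445 and 586 in the primed libraries, 1.83-fold higher. In each primed library the BMPR1A-203 span held the larger share, 60.2% (95% Wilson interval 57.3% to 63.0%) and 56.2% (53.5% to 58.8%), and in each naive library the smaller, 26.0% (21.5% to 31.1%) and 37.5% (32.5% to 42.7%).

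**Figure D5:**
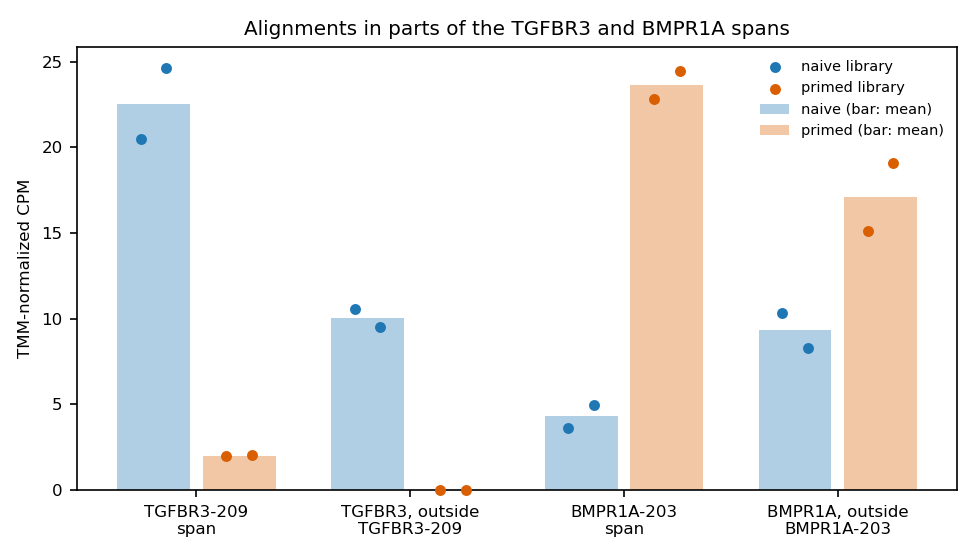
CPM of alignments inside the TGFBR3-209 span and outside it, and inside the BMPR1A-203 span and outside it, with the mean of each state as a bar and each library as a point. The primed libraries have no alignment of TGFBR3 outside the TGFBR3-209 span, and the BMPR1A-203 span holds 4.31 CPM in naive and 23.7 CPM in primed cells.

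Other genes of the pathway, 74 from a list of further ligands, co-receptors, regulators and targets, gave 54 tested genes, of which 16 were called higher and 20 lower in primed cells, where 70.0% of all genes were called, 37.4% higher and 32.6% lower. Their median log2 fold change was -0.13 with TMM and 0.51 with library size. Here 14 of the 54 turned direction with the scaling, beside 21.2% of all genes. Of 6 other receptors and co-receptors tested, 4 were called higher and 1 lower, and of 8 other targets, 1 higher and 5 lower. Extracellular regulators split 4 higher and 7 lower of 15 tested, intracellular regulators 2 and 5 of 14, and other ligands with BMP1 5 and 2 of 11. Of the 14 intracellular regulators 7 turned direction with the scaling, and their median went from -0.18 to 0.45 with library size.

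Named from that list are called genes among those that changed most in either direction, where the mean count reached 50. RGMA, a BMP co-receptor of the repulsive guidance molecule family, had 15 and 21 naive counts and 237 and 210 primed counts, a log2 fold change of 3.32 ± 0.27 (SE, adjusted p = 1.28e-14). NEO1, the receptor of RGM proteins, went from 41 and 42 to 363 and 410 counts, by 2.91 ± 0.21 on the log2 scale. TGIF2, a homeobox corepressor that binds SMADs, went from 100 and 108 to 592 and 763 counts, by 2.39 ± 0.18. These 3 genes had both primed libraries above both naive libraries. MSX2, a BMP target, fell from 1237 and 1555 counts to 16 and 20, a log2 fold change of -6.57 ± 0.22 (adjusted p = 5.95e-28). GDF15, a distant member of the superfamily known as a stress-induced ligand, fell from 2516 and 2458 counts to 74 and 60, by 5.52 ± 0.19 on the log2 scale. The values of MSX2 and GDF15 moved with the sums of the trophoblast and amnion markers given above, and the part of those cells in the result was not tested.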

How the data were processed

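Nanopore cDNA of 2 naive and 2 primed H1 libraries was analysed from the raw counts deposited by the authors. They aligned reads with minimap2 (per the labels) to GRCh38 and counted alignments per Ensembl 105 transcript with featureCounts 2.0.0 in long-read mode. Per the file headers, counts covered whole transcript spans including introns, strand was ignored, an alignment counted for every transcript it overlapped and at every place it aligned, and replicates were not pooled.

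Of 244825 transcripts, 242542 were matched by identifier to GENCODE 44, 97.9% at the same position, and the 2283 without a match (1.0% of counts) were left out. Libraries totalled 153647482 and 161548901 (naive) and 129276054 and 132927036 (primed) counts. Replicates differed by more than sampling noise (chi-square per degree of freedom 15.2 and 8.89).

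The members, gene lists and tests were chosen with earlier results of these data known. Genes that reached 10 counts in 2 or more libraries were fitted with edgeR 4.0.16 in R 4.3.3 (TMM, state as the only term), two-sided, with Benjamini-Hochberg adjustment over all 27634 genes, and isoform usage with diffSpliceDGE over 159577 isoforms, in place of the authors' IsoformSwitchAnalyzeR. The SE came from the F statistic. Values per library are given for members called beyond a log2 fold change of 1, without a count in a state, or at the limit of 3 counts in both. Alternatives were library size, DESeq2 1.42.0, a replicate block, no filter, at least 50 counts, summed or canonical transcripts, a log2 threshold of 1, other isoform fractions and thresholds, and each library left out. Span parts, overlapping genes, copies (blastn 2.17.0, at least 90% identity over 300 bases) and scaling to all counts were added after the values were seen. The scripts were tested on simulated data. One further gene that the naming rule selects and one sequence are not reported here.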

Additional observations from a re-analysis of the deposited data

How the results depend on the processing

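Calls were made on 2 libraries per state, so the precision rests on spread shared across genes, and members with under 30 counts per library are limited by depth. With a library left out, the lone library of its state was assumed to vary like the other state. Replicate numbers recur in both states but deviations of same-numbered libraries correlated at only 0.0713, so the pairing is not shown; with the replicate block 33 members were called, 21 higher and 12 lower, and 0 isoforms, and no call of a member changed. The count of members called was 31 with DESeq2, 32 without a filter, 26 at 50 counts, 32 with summed and 33 with canonical transcripts, between 30 and 32 with a library left out, and 24 without the 13 members whose overlapping gene held at least 50% of their count (16 higher, 8 lower). Scaling by library size left 6 members lower, and over all genes 15526 higher and 4512 lower. A log2 threshold of 1 left 20 members (13 higher, 7 lower), and over all genes 7896 higher and 5120 lower. At the filter of 50 counts INHBA, TGFB2, TGFB3, BMP2, BMPR1B and SMAD9 were called in the main fit but not tested. There ID2 lost its call (adjusted p = 0.0780, edgeR's quasi-likelihood test). The share of all genes called under most of these settings is not given, so these counts do not compare members with other genes. Isoform usage gave 3 member isoforms without the fraction threshold and 0 in the other settings. Of the members, BMPR2 (0.10), SMAD5 (0.37), FSTL3 (0.57) and ID2 (0.23) turned sign with library size, BMPR2 (0.030) and ID2 (0.17) with scaling to all counts, and SKI with DESeq2 (-0.0019) and summed transcripts (-0.21). With a library left out, values ran from -0.039 to 0.44 for LEFTY1, -0.012 to 0.56 for FOXH1, -0.34 to 0.22 for FSTL3, -0.16 to 0.36 for BAMBI and -0.24 to 0.28 for SKI. The cause of these changes was not tested.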

Other observations

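Alignments were also counted at several near-identical copies and antisense neighbours of members, chosen after their values were seen. Because an alignment counted at every place it aligned, the counts of a copy may hold reads of the member. The direction of a copy is therefore no separate result. The processed pseudogenes BMPR1AP1 (98.6% identical to BMPR1A over 1599 bases) and BMPR1AP2 (99.2% over 1011 bases) had 10 and 24, and 4 and 6, counts in the naive libraries and 65 and 55, and 23 and 29, in the primed libraries, in the same direction as BMPR1A. ID2B, a copy of ID2 (95.6% over 405 bases), had between 7 and 13 counts in every library. LEFTY3P, a partial copy of the LEFTY genes, had 5 and 4 naive counts and none in the primed libraries. INHBA-AS1, which overlaps the INHBA gene on the other strand, had no naive count and 26 and 13 primed counts, at least 5.28-fold higher (edgeR's quasi-likelihood test, adjusted p = 6.12e-07). Only through its primed libraries, where it is high, did INHBA-AS1 reach the count filter, so its p-value is no separate support. SMAD1-AS1, inside SMAD1, had 47 and 28 naive counts and 75 and 69 primed counts, and its log2 fold change of 0.62 did not pass the test (adjusted p = 0.0531) but did at 1.27 with library size (adjusted p = 0.000602). SMAD5-AS1, at the start of SMAD5, had 148 and 178 naive counts and 130 and 108 primed counts, a log2 fold change of -0.76 (adjusted p = 0.00122) that was -0.12 with library size (adjusted p = 0.617). No test is given for the pseudogenes, and which of the overlapping genes the alignments came from cannot be told apart without strand.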
